A study of Danio rerio with 2 samples.

Results

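The transcription factor genes sox10 (ENSDARG00000077467), foxd3 (ENSDARG00000021032), sox9b (ENSDARG00000043923) and snai1b (ENSDARG00000046019) were followed in single cells of the zebrafish embryo. They were taken by identifier or name as 4 of the 18723 gene rows of the filtered count table, because they are regulators of the neural crest, and not by their values. The cells came from AB wild-type embryos at 24 hours post fertilisation and had been sorted for a green reporter driven by mitfa sequence and a red reporter driven by crestin sequence. One group of embryos had received ErbBi, a name taken to mean an inhibitor of ErbB receptors, and the other had been left untreated. Strain, stage and sort were the same in both groups. Each group gave 1 library of 10x Genomics 3' version 2 chemistry, while dose and length of treatment are not used here. The name table calls 2 rows SOX9, so the name sox9b is that of the identifier given above, and the other row held 5 UMIs in all.

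The neural crest is a population of migratory embryonic cells that gives rise to pigment cells, peripheral neurons, glia and skeletal tissue. The pigment cell lineages of zebrafish are melanophores, xanthophores and iridophores. sox10 encodes a SoxE factor that zebrafish crest needs for its pigment and neural derivatives and that activates mitfa, the master gene of melanophores. foxd3 encodes a forkhead factor of early crest that represses mitfa in zebrafish. sox9b encodes a second SoxE factor of crest, and snai1b a zinc-finger repressor of the Snail family, which is known for its part in the change of epithelial cells to migratory ones.

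The ErbBi library held 348 cells with 1113172 unique molecular identifiers (UMIs) and a median of 2732.5 UMIs per cell, against 999 cells, 7242348 UMIs and a median of 7099 in the untreated library. Levels are given as CPM, the UMIs of a gene scaled to the pooled UMIs of the cells named. One UMI in a cell of median depth corresponds to 366 CPM in the ErbBi library and 141 CPM in the untreated library. With 1 library per treatment no test between treatments is possible, and effects of library and of treatment cannot be told apart. Intervals are 95% intervals and cover counting error only. They are exact for CPM (Poisson), for shares (Clopper-Pearson) and for ratios of levels (conditional binomial). Differences between shares have approximate intervals built from Wilson limits. Ratios of observed to expected co-detection have Poisson intervals of the observed count, with the expected count taken as fixed. All intervals of levels treat UMIs as independent, although UMIs of 1 cell are not. The libraries shared 6 cell barcodes. All 10 rows of the neural crest marker list, which holds the 4 genes, were found in both libraries, at a summed 958 CPM after ErbBi and 1183 CPM without it. The 11 mesenchyme markers summed to 1776 CPM after ErbBi and 533 CPM without it, and the 9 melanoblast markers to 9056 CPM after ErbBi and 17097 CPM without it. These differences in makeup stand beside every value over all cells below.

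Scaled to library totals, sox10 was the only one of the 4 genes whose pooled level differed between the libraries by more than counting error. It had 284 UMIs and 255 CPM (226 to 287) in the ErbBi library, against 2552 UMIs and 352 CPM (339 to 366) in the untreated library, a ratio of 0.724 (0.638 to 0.819). Of the 9319 genes with at least 30 UMIs, 18.4% had a lower ratio than sox10. How many of them differed by more than counting error was not counted. Cells of the mesenchyme-like cluster described below made up 39.7% of ErbBi and 8.01% of untreated cells, and without them the sox10 ratio was 0.987 (0.860 to 1.13). foxd3 stood at 133 CPM (112 to 156, 148 UMIs) after ErbBi and 150 CPM (141 to 159, 1088 UMIs) without it, a ratio of 0.885 (0.740 to 1.05). The interval of that ratio includes 1, and the ratio was 1.08 (0.883 to 1.32) without the mesenchyme-like cells. TMM scaling shifted every log2 ratio by -0.36 and put sox10 at 0.562 and foxd3 at 0.688 over all cells, with intervals below 1 for both. The ratios without mesenchyme-like cells are given without this shift, which would lower them as well. With the same shift, the sox10 interval without these cells would lie below 1, and that of foxd3 would still include 1.

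sox9b and snai1b were scarce in both libraries. sox9b had 20 UMIs (18.0 CPM, 10.97 to 27.7) in ErbBi cells and 122 UMIs (16.8 CPM, 14.0 to 20.1) in untreated cells, a ratio of 1.07 (0.629 to 1.72). snai1b had 27 UMIs (24.3 CPM, 16.0 to 35.3) in ErbBi cells and 132 UMIs (18.2 CPM, 15.2 to 21.6) in untreated cells, a ratio of 1.33 (0.845 to 2.02). Changes of up to about the size of these limits were not detectable at this depth.

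The genes also differed in how their UMIs were spread over cells. In the untreated library 189 cells had at least 5 sox10 UMIs and held 48.0% of them, and 67 cells had at least 5 foxd3 UMIs and held 49.4% of them. The highest cell had 15 UMIs of either gene. In the shallower ErbBi library the counts of such cells were 6 for sox10 and 4 for foxd3. A cell with sox9b or snai1b mostly had a single UMI of it, in 20 of 20 ErbBi and 67 of 87 untreated cells for sox9b, and in 20 of 23 ErbBi and 87 of 108 untreated cells for snai1b.

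To compare how many cells carried each gene, every cell was thinned to 1900 UMIs, which left out 68 ErbBi and 53 untreated cells. sox10 was then found in 92 of 280 ErbBi cells (32.9%, 27.4 to 38.7) and 424 of 946 untreated cells (44.8%, 41.6 to 48.1), a difference of -12.0 percentage points (-18.1 to -5.45). Mesenchyme-like cells were 120 of these ErbBi but 75 of these untreated cells, and 16 and 7 of them had sox10. The difference without them was not computed. Within each cluster with at least 20 cells of both libraries, the thinned sox10 shares had overlapping intervals. Before thinning, sox10 was in 45.98% of all ErbBi and 79.2% of all untreated cells, at the depths given above. For foxd3 the thinned shares were 18.6% (14.2 to 23.6) in ErbBi and 18.4% (16.0 to 21.0) in untreated cells, a difference of 0.178 points (-4.69 to 5.67), against 24.4% of ErbBi and 38.6% of untreated cells before thinning. sox9b was found in 9 of 280 ErbBi cells (3.21%) and 26 of 946 untreated cells (2.75%), and snai1b in 13 of those ErbBi cells (4.64%) and 33 of those untreated cells (3.49%). Unthinned, sox9b was in 5.75% of ErbBi and 8.71% of untreated cells, and snai1b in 6.61% of ErbBi and 10.8% of untreated cells.

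Free RNA can give UMIs to cells that do not express a gene, and mesenchyme-like cells served as the comparison for sox10 and foxd3. Of these cells, 16 of 120 in the ErbBi library (13.3%, 7.82 to 20.7) and 7 of 75 in the untreated library (9.33%, 3.84 to 18.3) had a sox10 UMI after thinning. For foxd3 the counts were 15 of 120 ErbBi cells (12.5%, 7.17 to 19.8) and 4 of 75 untreated cells (5.33%, 1.47 to 13.1). Median depths before thinning were 3138 UMIs in ErbBi and 9557.5 UMIs in untreated mesenchyme-like cells. The shares over all cells lay above these for sox10 in both libraries and for foxd3 in the untreated library. For foxd3 in the ErbBi library the intervals overlapped. All cells include the mesenchyme-like cells themselves, which were 120 of 280 thinned ErbBi cells but 75 of 946 thinned untreated cells. The shares over all cells thus lie nearer to the mesenchyme-like shares than those of the other cells do, above all in the ErbBi library. Shares over the other cells alone were not computed. Whether mesenchyme-like cells express either gene themselves was not tested, so these shares are not a measure of free RNA alone. Before thinning, the 5 ErbBi mesenchyme-like cells with the most foxd3 held 43.2% of its UMIs in that cluster.

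The cells were clustered without the 4 genes among the features. Cluster 1, with 7 ErbBi and 221 untreated cells, was called melanoblast-like from both TYRP1 genes, dct and pmela. Cluster 2, with 138 ErbBi and 80 untreated cells, was called mesenchyme-like and was led by twist1a, DLX2 (ENSDARG00000079964) and PRRX1 (ENSDARG00000033971). Clusters 6 and 8 were xanthoblast-like, the first led by both PAX7 genes with aox5 and the second holding slc22a7a and gch2. Cluster 9 was neural tube-like, with sox3 and sox19a. Clusters 3, 4, 5, 7 and 10 kept their numbers. No gene of any marker list was among the leading genes of clusters 4, 5, 7 and 10. Cluster 5 (7 ErbBi, 101 untreated cells) was led by HBE1 (ENSDARG00000087390), at 65.0 times its level in other cells, and tfap2b, at 2.65 times. Cluster 3 (47 ErbBi, 132 untreated cells) was led by ALX4 (ENSDARG00000088332), PRDM12 (ENSDARG00000007430), foxd3 itself and wnt11, and cluster 7 (30 ErbBi, 74 untreated cells) by the EGFP transcript of the green reporter and hoxd9a. Cluster 4 held 144 untreated cells and 0 ErbBi cells, and cluster 10 held 60 ErbBi cells, with a median of 2.87% of their UMIs in melanin genes, and 1 untreated cell. An epidermis-like cluster of 9 cells is not described further. Clusters and levels come from the same cells, so levels by cluster are a description.

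sox10 was spread broadly over the clusters other than the neural tube-like and mesenchyme-like ones. Among untreated cells its level was 515 CPM (451 to 586) in cluster 7, 455 in cluster 4, 439 in the xanthoblast-like cluster 6, 396 in cluster 5, 387 in the melanoblast-like cluster, 346 in cluster 3 and 323 (276 to 376) in the xanthoblast-like cluster 8. No neighbours in that order had intervals apart from each other, but some clusters further apart in it did. The interval of cluster 7 lay above those of cluster 5, the melanoblast-like cluster, cluster 3 and cluster 8. Those of clusters 4 and 6 lay above those of clusters 3 and 8. The level was lower in the neural tube-like cluster, at 156 CPM (117 to 203), and lower again in the mesenchyme-like cluster, at 74.1 CPM (55.6 to 96.6), and both steps were larger than counting error. The neural tube-like value came from 54 UMIs in 18 of 61 cells, and 5 of those cells held 59.3% of them. In the ErbBi library sox10 was highest in cluster 7 as well, at 599 CPM (443 to 792), and stood at 403 CPM (321 to 500) in cluster 10.

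foxd3 was concentrated in cluster 3. Untreated cells of this cluster had 488 CPM (447 to 531), the xanthoblast-like cluster 6 had 233 CPM (202 to 268), and cluster 5 had 149 CPM (123 to 179), each apart from the next. The xanthoblast-like cluster 8 followed with 104 CPM, cluster 7 with 77.7, the melanoblast-like cluster with 51.3, cluster 4 with 51.3, the neural tube-like cluster with 31.8 and the mesenchyme-like cluster with 24.7 CPM, and no neighbours among these or with cluster 5 had intervals apart. Cluster 3 held 48.0% of the foxd3 UMIs of the ErbBi library with 10.7% of its depth, and 48.1% of those of the untreated library with 14.8% of its depth. The 2 xanthoblast-like clusters thus differed in foxd3, with 29 of 84 (34.5%, 24.5 to 45.7) thinned untreated cells of cluster 6 and 15 of 89 (16.9%, 9.75 to 26.3) of cluster 8 carrying a UMI. These shares have overlapping intervals, while the CPM intervals do not overlap.

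sox9b and snai1b had their highest untreated levels in cluster 3 too. sox9b stood there at 53.1 CPM (40.2 to 68.8), followed by 30.2 CPM (18.9 to 45.7) in the mesenchyme-like cluster and 17.3 CPM (9.69 to 28.6) in cluster 6, and at 5.52 CPM (2.65 to 10.2) in the melanoblast-like cluster. snai1b stood at 44.7 CPM (33.0 to 59.3) in cluster 3, 26.6 CPM (16.8 to 39.8) in cluster 6 and 4.97 CPM (2.27 to 9.43) in the melanoblast-like cluster. No neighbours in either order had intervals apart, but the level of cluster 3 lay above that of the melanoblast-like cluster for both genes. Cluster 4 held a single UMI of each gene in 144 cells.

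**Figure D1:**
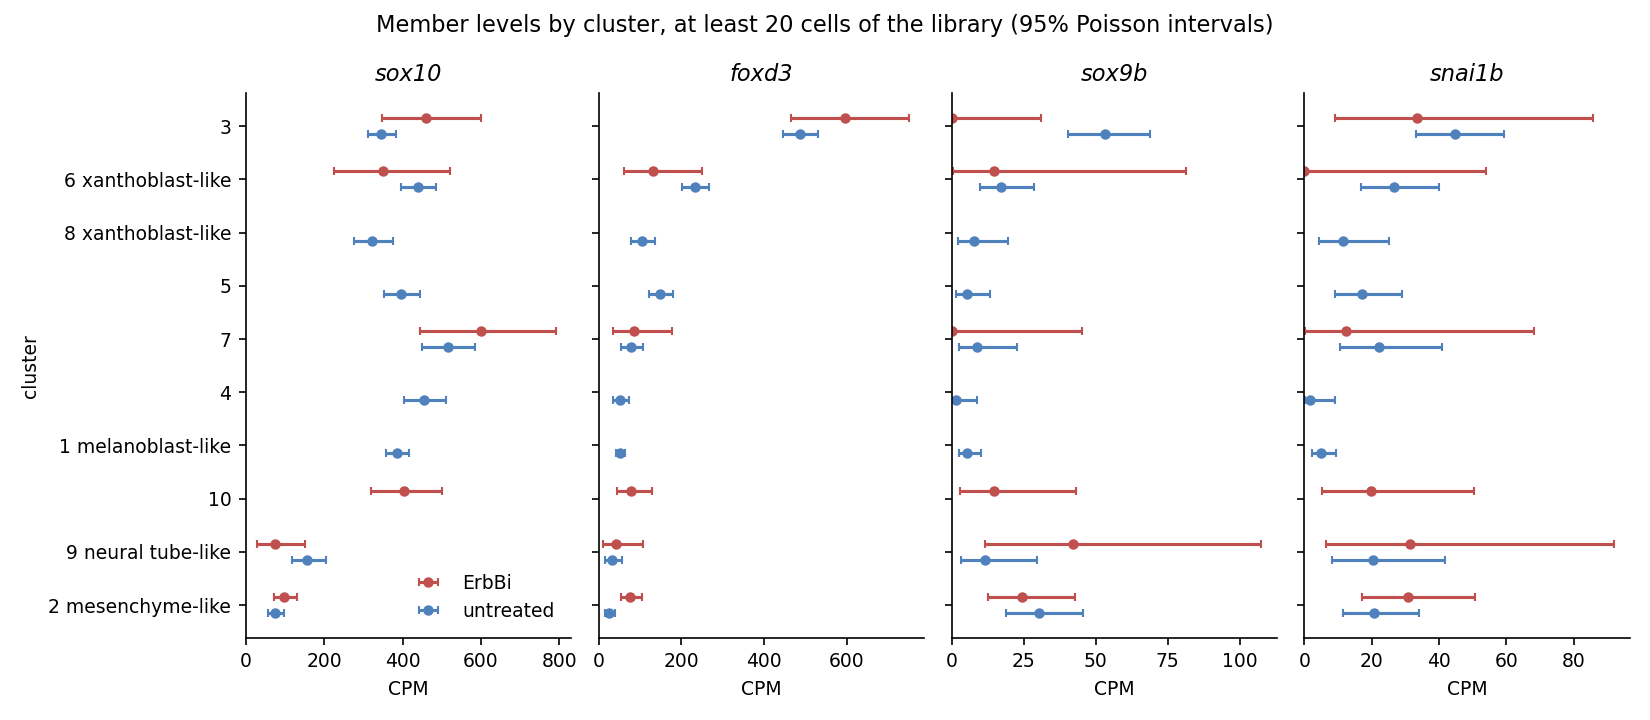
Pooled level (CPM) of each gene by cluster, with exact 95% Poisson intervals that cover counting error, for clusters with at least 20 cells of a library (ErbBi in red above untreated in blue). sox10 is spread over clusters 3 to 8 and 1, with lower levels in clusters 9 and 2, while foxd3 reaches 595 CPM in ErbBi and 488 CPM in untreated cells of cluster 3.

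Within clusters the libraries could be compared in clusters 2, 3, 6, 7 and 9, which had at least 20 cells of each. Of 20 ratios, 2 had an interval that left out 1, those of foxd3 in the mesenchyme-like cluster and sox9b in cluster 3. Their values under other clusterings are given below. The sox10 ratio was 1.32 (0.878 to 1.99) in the mesenchyme-like cluster, 1.33 (0.984 to 1.77) in cluster 3, 0.798 (0.505 to 1.21) in cluster 6, 1.16 (0.837 to 1.59) in cluster 7 and 0.471 (0.181 to 1.04) in cluster 9. Scaled to pooled totals, the lower sox10 level over all cells was thus not found beyond counting error within any of these 5 clusters. These ratios are given without the TMM shift of -0.36 in log2, which would lower each of them. With that shift the intervals of sox10 would lie below 1 in clusters 6 and 9. They would still include 1 in clusters 2, 3 and 7.

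foxd3 in the mesenchyme-like cluster stood at 75.5 CPM (53.2 to 104) after ErbBi, from 37 UMIs in 23 of 138 cells, against 24.7 CPM (14.6 to 39.0) without it, from 18 UMIs in 17 of 80 cells. The ratio was 3.06 (1.70 to 5.71). After thinning, 12.5% (7.17 to 19.8) of ErbBi and 5.33% (1.47 to 13.1) of untreated cells of this cluster had a foxd3 UMI, with overlapping intervals. The ErbBi cells of this cluster with foxd3 had sox10 at 199 CPM (18 UMIs in 13 cells), against 75.1 CPM in those without. Their 11 mesenchyme markers summed to 2283 CPM (1982 to 2617) against 2988 CPM (2821 to 3162). Untreated cells of the cluster had sox10 at 93.7 CPM with foxd3 (19 UMIs in 11 cells) and 66.5 CPM without. Their mesenchyme markers summed to 2383 CPM (2175 to 2605) and 2623 CPM (2487 to 2765), with overlapping intervals. None of the 23 ErbBi cells with foxd3 was called a doublet. Whether these cells belong with the cluster was not tested. When the regulator list was left out of clustering, or at resolution 1.5, the matching cluster gave no finite ratio. That happens where it holds no untreated foxd3 UMI or lacks cells of a library. The ratio could therefore not be checked under these settings, and they do not show whether untreated cells lack foxd3.

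In cluster 3 foxd3 had a ratio of 1.22 (0.938 to 1.56), from 595 CPM (464 to 750) in ErbBi and 488 CPM in untreated cells. sox9b was at 0 UMIs in all 47 ErbBi cells of cluster 3, against 57 UMIs and 53.1 CPM in 34 of 132 untreated cells. The upper limits for those ErbBi cells were 30.9 CPM and 7.55% of cells with a sox9b UMI. The interval of the ratio was 0 to 0.601. At resolution 1.5 it was 0 to 1.81, which includes 1, and with the regulator list left out of clustering the ratio was 0.153 (0.00380 to 0.886). After thinning, 0 of 32 ErbBi cells (0 to 10.9%) and 9 of 131 untreated cells (6.87%, 3.19 to 12.6) of cluster 3 had a sox9b UMI, with overlapping intervals. snai1b had 4 UMIs in ErbBi and 48 in untreated cells of this cluster, a ratio of 0.749 (0.196 to 2.04).

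Melanin genes gave an axis that did not use the 4 genes. Each cell was placed by the share of its UMIs in dct, pmela and both TYRP1 genes, which encode enzymes and a matrix protein of the melanosome. Of ErbBi cells, 261 had under 0.5%, 23 had 0.5 to 1%, 15 had 1 to 2%, 37 had 2 to 4% and 12 had over 4%, so the groups of 15 and 12 cells are thin. The untreated counts were 498, 97, 119, 152 and 133. The level of MITF (ENSDARG00000003732), a mitf gene whose paralogue letter the name table does not give, went along with the share. It was 208, 372, 583, 624 and 944 CPM in ErbBi cells and 359, 678, 893, 976 and 988 CPM in untreated cells, from the lowest to the highest group.

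foxd3 had a lower value in each successive melanin group of untreated cells. It stood at 214 CPM (199 to 229), 135, 115, 73.8 and 44.1 CPM (32.1 to 58.9) from the lowest to the highest group, so that cells over 4% had 0.206 times (0.149 to 0.279) the level of cells under 0.5%. In ErbBi cells the levels were 144 CPM (119 to 172), 178, 173, 64.9 and 0 CPM. The last came from 12 cells, in which 0 UMIs allow up to 91.6 CPM. Cells over 2% had 0.340 times (0.144 to 0.692) the foxd3 level of cells under 0.5% in the ErbBi library and 0.278 times (0.228 to 0.336) in the untreated library. foxd3 thus had the same direction in both libraries. It was still found in 36 of 133 untreated cells over 4% before thinning, and in 12 of 128 after it (9.38%, 4.94 to 15.8), an interval that overlaps that of untreated mesenchyme-like cells.

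sox10 did not follow foxd3 along the melanin share. In untreated cells it stood at 314 CPM (296 to 333), 402, 377, 429 and 355 CPM (320 to 394), a ratio of 1.13 (1.00 to 1.27) for over 4% against under 0.5%. In ErbBi cells the levels were 215 CPM (185 to 249), 323, 367, 413 and 373 CPM (209 to 615), a ratio of 1.73 (0.95 to 2.93). Cells over 2% had 1.88 times (1.39 to 2.50) the sox10 level of cells under 0.5% in the ErbBi library and 1.25 times (1.14 to 1.37) in the untreated library. The lowest group held most of the mesenchyme-like cells, which made up 51.7% of it in the ErbBi library and 15.7% in the untreated library. Without mesenchyme-like and neural tube-like cells, sox10 was 472, 381, 367, 413 and 373 CPM in ErbBi cells and 399.6, 418, 381, 426 and 355 CPM in untreated cells, and the untreated ratio of over 4% to under 0.5% turned to 0.889 (0.787 to 1.00). Cells over 2% then had 0.854 times (0.625 to 1.16) the sox10 level of cells under 0.5% in the ErbBi library and 0.980 times (0.893 to 1.07) in the untreated library. foxd3 in the same cells was 303, 191, 173, 64.9 and 0 CPM in the ErbBi library and 284, 142, 118, 74.8 and 44.1 CPM in the untreated library. Its ratios of over 2% to under 0.5% were 0.162 (0.0675 to 0.334) in ErbBi cells and 0.210 (0.172 to 0.254) in untreated cells. The direction for sox10 therefore depends on the mesenchyme-like and neural tube-like cells, and that for foxd3 does not. Cluster 3 stayed in, with 48.1% of untreated foxd3 UMIs and a median melanin share of 0.351% in its untreated cells. foxd3 along the melanin share without cluster 3 was not tested.

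sox9b and snai1b were low in melanin-rich untreated cells. sox9b stood at 25.02 CPM (20.1 to 30.7), 10.5, 18.0, 3.69 and 4.89 CPM (1.59 to 11.4), and the ratio of the highest to the lowest group was 0.196 (0.0620 to 0.473). snai1b stood at 27.5 CPM (22.4 to 33.4), 21.0, 7.20, 6.46 and 4.89 CPM (1.59 to 11.4), with a ratio of 0.178 (0.0566 to 0.429). The ErbBi library held 3 UMIs of sox9b and 4 of snai1b in its 49 cells over 2%. Their ratios to cells under 0.5% were 0.908 (0.170 to 3.14) for sox9b and 0.935 (0.234 to 2.75) for snai1b, too wide to show a direction.

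**Figure D2:**
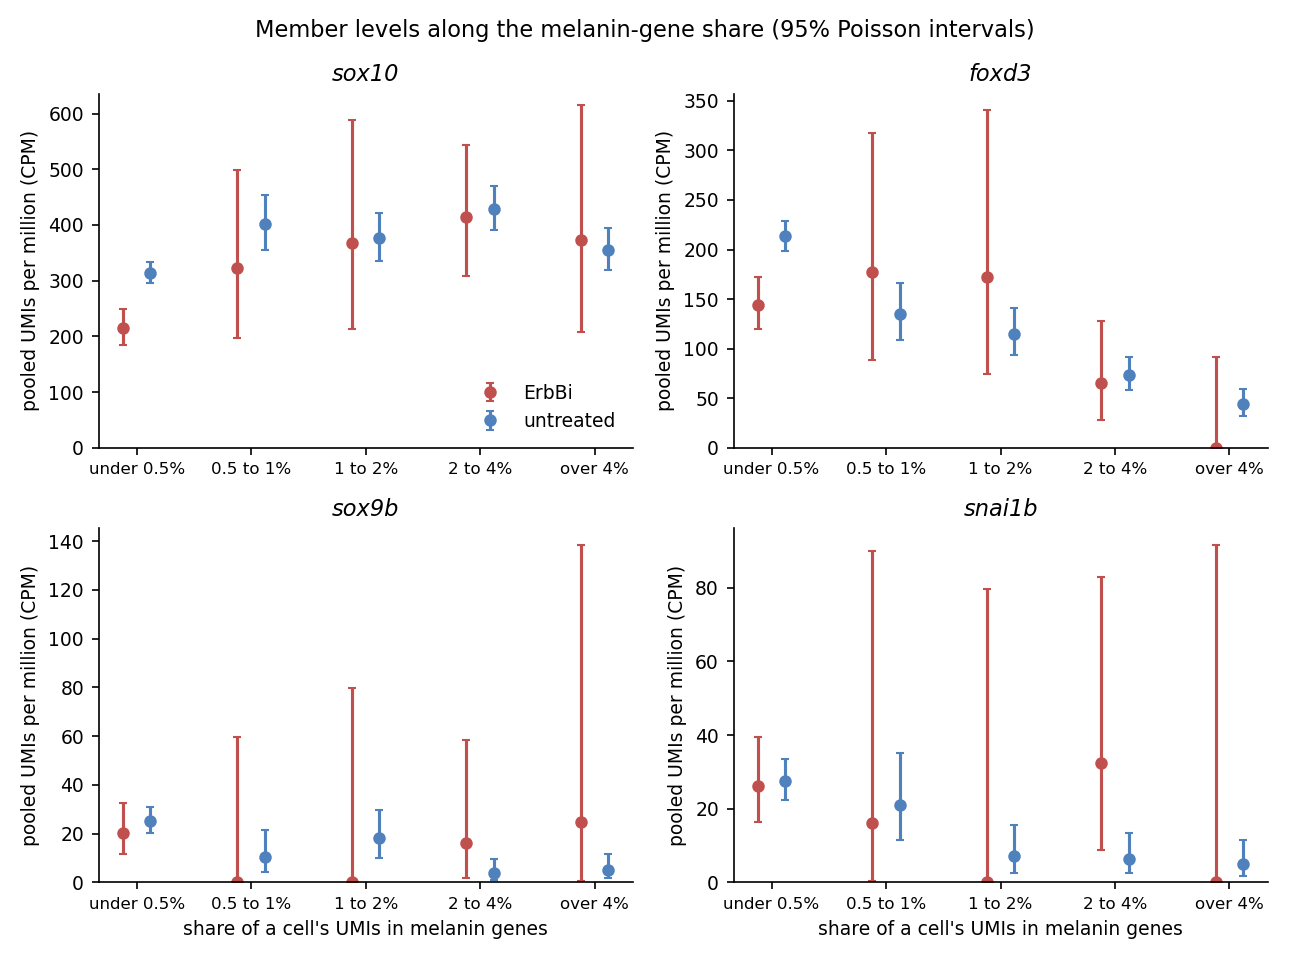
Pooled level (CPM) of each gene in 5 groups of cells by the share of UMIs in melanin genes, ErbBi in red left of untreated in blue, with exact 95% Poisson intervals that cover counting error. Untreated foxd3 is at 214 CPM in the lowest and 44.1 CPM in the highest group while untreated sox10 is at 314 and 355 CPM, and ErbBi intervals are wide above 0.5%.

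Between libraries at a like melanin share, with levels scaled to pooled totals, sox10 differed beyond counting error in the lowest group alone. There its ratio was 0.685 (0.582 to 0.802), and above it 0.804, 0.975, 0.964 and 1.05, each with an interval that includes 1. foxd3 had a ratio of 0.673 (0.551 to 0.816) in the lowest group, where the shares of mesenchyme-like cells given above differ. Its ratios in the next 3 groups were 1.32, 1.5 and 0.879, with intervals that include 1. Of the scarcer genes, snai1b had 4 UMIs in ErbBi and 7 in untreated cells with 2 to 4%, a ratio of 5.02 (1.08 to 19.7), and each other ratio of sox9b and snai1b had an interval that includes 1. Without mesenchyme-like and neural tube-like cells, an alternative chosen after seeing the data, the ratio in the lowest group turned to 1.18 (0.976 to 1.42) for sox10 and 1.06 (0.836 to 1.34) for foxd3, both with intervals that include 1. For sox9b it was then 0.143 (0.00357 to 0.824), from 1 UMI in 97 ErbBi cells and 68 UMIs in 366 untreated cells.

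Co-detection was counted in thinned cells and set beside the product of the shares of the 2 genes. sox10 and foxd3 were found together in 28 of 280 ErbBi cells, where independent shares give 17.1, a ratio of 1.64 (1.09 to 2.37). In untreated cells they were found together in 82 of 946, where independent shares give 78.0, a ratio of 1.05 (0.836 to 1.31). When the expected count was summed over clusters, the ErbBi ratio was 1.31 (0.871 to 1.89) and the untreated ratio 1.02 (0.812 to 1.27). The ErbBi interval also included 1 when cells were thinned to 1000 (0.815 to 2.50) or 3000 UMIs (0.814 to 2.31). Of foxd3-positive cells, 53.8% (39.5 to 67.8) of the ErbBi and 47.1% (39.5 to 54.8) of the untreated ones also had sox10, against 28.1% (22.3 to 34.4) of ErbBi and 44.3% (40.8 to 47.9) of untreated foxd3-negative cells.

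Pairs with sox9b or snai1b were rare after thinning. Among untreated cells foxd3 and sox9b were together in 9 cells against 4.78 expected, foxd3 and snai1b in 10 against 6.07, and sox9b and snai1b in 3 against 0.907, and each interval of the ratio includes 1. sox10 was together with sox9b in 7 cells against 11.7 expected and with snai1b in 12 against 14.8. In ErbBi cells foxd3 was together with sox9b or snai1b in 0 cells, and 1.67 and 2.41 were expected. Without thinning, untreated sox9b and snai1b were together in 25 cells against 9.41 expected (2.66, 1.72 to 3.92), foxd3 and snai1b in 69 against 41.7 (1.65, 1.29 to 2.09), and foxd3 and sox9b in 49 against 33.6 (1.46, 1.08 to 1.93). Deeper cells are more likely to carry any gene, and median depths were 9739 UMIs in untreated cells with sox9b and 6884 in those without, so cells were also thinned to 3000 UMIs. The ratio was then 1.85 (1.098 to 2.93) for foxd3 and sox9b, 1.66 (0.967 to 2.66) for foxd3 and snai1b, and 1.16 (0.140 to 4.18) for sox9b and snai1b.

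**Figure D3:**
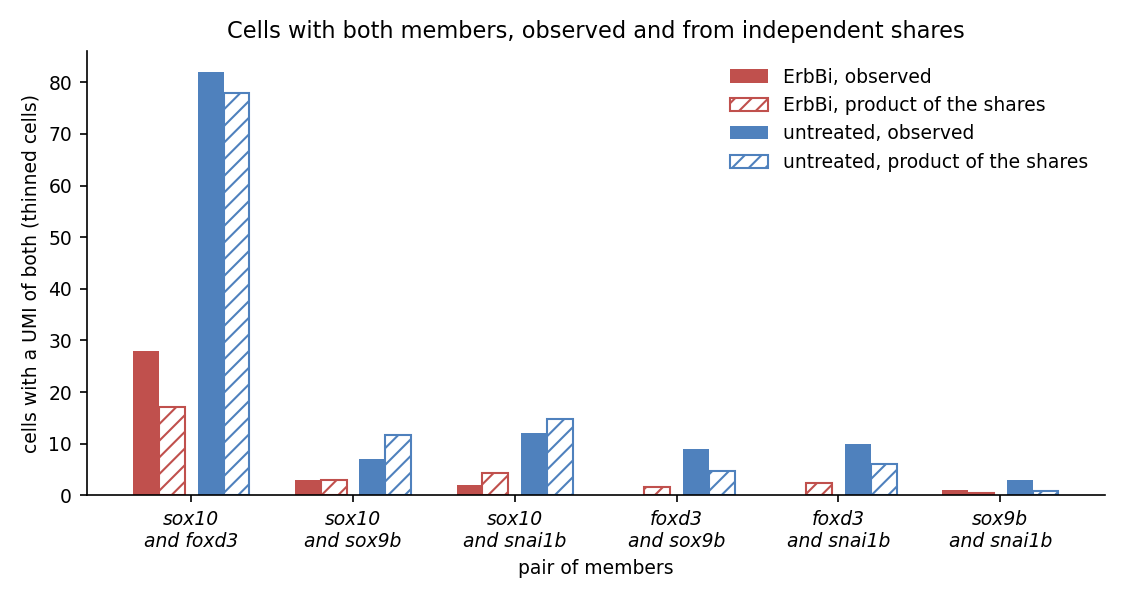
Number of thinned cells with a UMI of both genes of a pair (filled bars) and the number that independent shares give (hatched bars), for ErbBi in red left of untreated in blue. The ErbBi library had 28 cells with sox10 and foxd3 against 17.1 expected and the untreated library 82 against 78.0, while the other pairs lie at 12 cells or fewer.

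Cells with all 4 genes were seen in the deeper library before thinning, with 0 of 348 in the ErbBi library and 19 of 999 in the untreated library. Of those 19, 13 lay in cluster 3, 3 in cluster 6, 2 in cluster 5 and 1 in cluster 8, and 16 had under 0.5% melanin UMIs. After thinning, 34 of 280 ErbBi cells (12.1%, 8.56 to 16.6) and 106 of 946 untreated cells (11.2%, 9.27 to 13.4) had at least 2 of the 4 genes. In cluster 3 that share was 46.9% (29.1 to 65.3) in ErbBi and 31.3% (23.5 to 40.0) in untreated cells. In the melanoblast-like cluster it was 7.76% (4.59 to 12.1) of untreated cells.

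Among untreated sox10-positive cells, foxd3 was most frequent in the lowest melanin group. In untreated cells, 54 of 185 sox10-positive cells under 0.5% also had foxd3 (29.2%, 22.8 to 36.3), and in the groups above it the shares were 13.3%, 9.68%, 13.3% and 10.5% (3.96 to 21.5). The lowest group and the highest had intervals apart from each other, and the intervals of the 4 upper groups overlapped. In ErbBi cells the shares were 37.0% (24.3 to 51.3), 22.2%, 14.3%, 27.8% and 0% (0 to 60.2), with overlapping intervals on 54, 9, 7, 18 and 4 sox10-positive cells. In cluster 3, 73.7% (48.8 to 90.9) of ErbBi and 48.3% (35.0 to 61.8) of untreated sox10-positive cells had foxd3. Of all thinned cells of that cluster, with or without sox10, 65.6% of ErbBi and 52.7% of untreated cells had it. Over all thinned untreated cells the foxd3 shares were 25.5%, 16.1%, 11.7%, 9.72% and 9.38% from the lowest to the highest melanin group. In ErbBi cells they were 19.7%, 22.2%, 8.33%, 18.2% and 0%. Each has an interval that overlaps that of the sox10-positive cells of its group.

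**Figure D4:**
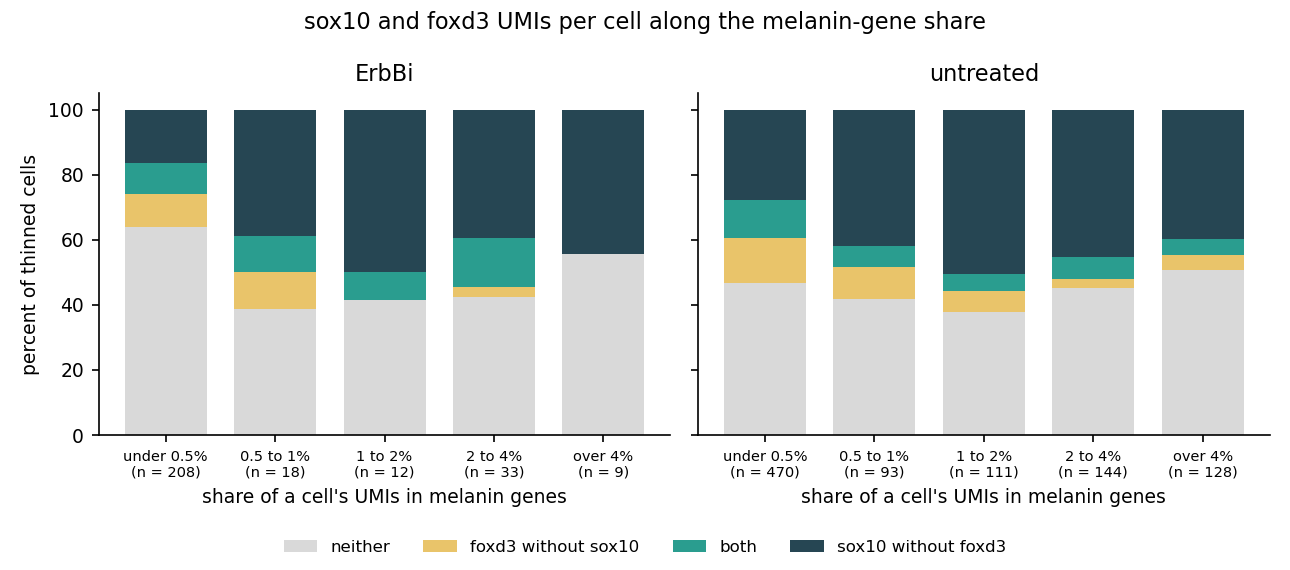
Percent of thinned cells with sox10 alone of the 2 genes, both, foxd3 alone or neither, in the 5 melanin groups, for the ErbBi library on the left and the untreated library on the right, with the number of cells under each bar. In untreated cells, foxd3 without sox10 takes 14.0% of the lowest group and 4.69% of the highest, and sox10 without foxd3 takes 27.9% and 39.8%.

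The genes also differed in the company of MITF. Among thinned untreated cells MITF was found in 64.4% (59.6 to 68.9) of cells with sox10 and 55.0% (50.6 to 59.3) of cells without it. For foxd3 the order was the opposite, with 49.4% (41.8 to 57.1) of cells with foxd3 and 61.4% (57.9 to 64.8) of cells without it. MITF was in 7 of 26 untreated cells with sox9b (26.9%, 11.6 to 47.8) and 60.1% (56.9 to 63.3) of those without, and in 51.5% (33.5 to 69.2) and 59.5% (56.2 to 62.7) for snai1b. In ErbBi cells the MITF shares with and without the gene were 47.8% and 36.2% for sox10 and 32.7% and 41.7% for foxd3, with overlapping intervals in both cases. Cells with and without a gene also differed in makeup. Of 75 thinned untreated mesenchyme-like cells, 7 had sox10, 4 had foxd3, 7 had sox9b and 2 had snai1b. Among all 946 thinned untreated cells the counts were 424, 174, 26 and 33. MITF shares within clusters or without the mesenchyme-like cells were not computed.

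crestin, the gene behind the red reporter, was found in 34.8% (25.1 to 45.4) of ErbBi cells with sox10 and 18.1% (12.9 to 24.3) of those without. In untreated cells the shares were 42.0% (37.2 to 46.8) and 35.1% (31.0 to 39.3), and these intervals overlap. EGFP was found in 47.8% (37.3 to 58.5) of ErbBi cells with sox10 and 26.1% (19.9 to 33.0) of those without. In untreated cells the EGFP shares were 42.7% (37.9 to 47.6) and 36.4% (32.3 to 40.7), with overlapping intervals. sox10 was in 16 of 120 thinned ErbBi mesenchyme-like cells, against 92 of 280 ErbBi cells in all. ErbBi cells without sox10 thus held a larger part of mesenchyme-like cells than those with it. Shares of crestin and EGFP without that cluster were not computed. For foxd3, sox9b and snai1b the intervals of the crestin and of the EGFP shares overlapped between cells with and without the gene in both libraries. The mCherry transcript was found in 7.61% of ErbBi cells with sox10 and 10.6% of those without, and in 17.0% and 14.0% of the untreated ones, with overlapping intervals.

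The 4 genes were set beside a list of 53 regulators of the neural crest, matched to 55 gene rows. For the treatment, 44 rows had at least 30 UMIs. Of these, 16 were higher by over 2-fold in the ErbBi library, where 12.3% of 9319 genes were, and 1 was lower, where 6.15% were. The median log2 ratio was 0.38, against 0.18 over all genes. None of the 4 genes passed 2-fold. With TMM scaling 11 rows were higher, where 6.35% of genes were, and 4 were lower, where 13.0% were, and sox10, foxd3, sox9b and snai1b still did not pass. Among the 16 were ets1 (4.82, 3.61 to 6.43), twist1a (4.28, 3.93 to 4.66), dlx5a (4.03, 3.13 to 5.17) and id1 (2.17, 2.07 to 2.27). They also held both SOX11 genes, PRDM1 (ENSDARG00000002445), RXRA (ENSDARG00000057737), SOX4 (ENSDARG00000098834), sox5, mych, hey1, id2b, msx1a and dlx3b. twist1a and dlx5a are also leading genes of the mesenchyme-like cluster, whose share differed between the libraries. The 1 lower gene was MITF, at 0.484 (0.433 to 0.541).

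For the melanin share in untreated cells, 36 rows had at least 30 UMIs, and 21 of them were lower by over 2-fold in cells over 4% than in cells under 0.5%, where 25.8% of 7655 genes were. Another 6 were higher, where 13.2% were. The median log2 ratio was -1.38, against -0.24 over all genes. foxd3, sox9b and snai1b were among the 21, at log2 ratios of -2.28, -2.35 and -2.49, and sox10 was not, at 0.18. The 21 also held both PAX7 genes (0.0787 and 0.158), PAX3 (ENSDARG00000010192), twist1a (0.113), id1, id3, mycn and ets1. The 6 higher rows were tfap2e (4.11, 3.68 to 4.59), tfap2c (3.87, 2.75 to 5.45), ID2 (ENSDARG00000055283, 3.85), MITF (2.75), tfap2a (2.41, 2.13 to 2.72) and msx1b (2.36). tfap2a, tfap2c and tfap2e encode AP-2 transcription factors, of which tfap2b stood at 0.779 (0.403 to 1.40), and crestin stood at 1.54 (1.36 to 1.73).

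The relatives of snai1b did not follow it. Cells over 4% had 0.178 times the snai1b level of cells under 0.5%, against 1.63 times (1.36 to 1.96) for snai1a and 1.29 times (0.971 to 1.69) for snai2. The interval of snai1b does not overlap those of the other two. snai1a and snai1b are paralogues, and the authors' counting could have split reads between them.

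**Figure D5:**
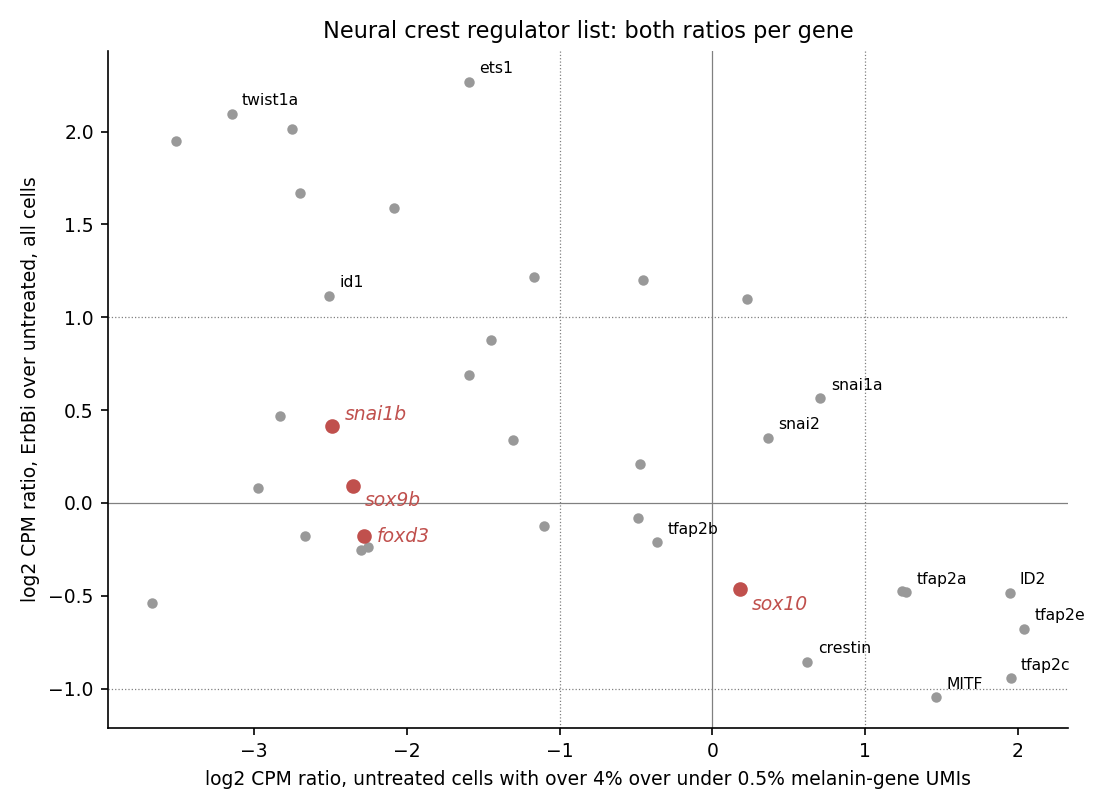
Each point is a gene of the regulator list with at least 30 UMIs in both comparisons, placed by its log2 CPM ratio of untreated cells over 4% against under 0.5% melanin UMIs (x axis) and of ErbBi over untreated cells (y axis), with dotted lines at 2-fold and the 4 genes in red. foxd3, sox9b and snai1b lie between -2.28 and -2.49 on the x axis, with sox10 at 0.18.

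Other genes with a like pattern over clusters were ranked by Pearson's r of log2(CPM + 10) over the 9 clusters with at least 30 untreated cells, among about 3578 genes with at least 200 untreated UMIs. The 9 points share 1 library and differ in depth, and many genes can reach a high r over 9 points, so the values are a description. The 5 genes most like sox10 were tmem147 (r = 0.98), bhlhe40, SNX9 (ENSDARG00000069302), si:dkeyp-72g6.2 and SEPTIN9 (ENSDARG00000020235, 0.94). For foxd3 they were papola (0.94), defbl1, apoda.1, RBMS1 (ENSDARG00000074023) and PRDM12 (0.87), all with their highest level in cluster 3. Over the clusters foxd3 ran from 24.7 to 488 CPM, but papola from 28.9 to 52.2 and RBMS1 from 20.8 to 40.1 CPM. The other genes ran from 5.78 to 239 CPM (defbl1), 9.60 to 262 (apoda.1) and 7.69 to 175 (PRDM12). For sox9b the 5 genes were nup93 (0.93), dnph1, FOXK2 (ENSDARG00000011609), MMP14 (ENSDARG00000008388) and prpf8 (0.92). For snai1b they included MMP14 (0.96), GLI2 (ENSDARG00000025641), STAG2 (ENSDARG00000053668) and jun (0.93), again each highest in cluster 3. Between the 4 genes r was 0.83 for sox9b with snai1b, 0.56 for foxd3 with snai1b, 0.54 for sox10 with foxd3, 0.43 for foxd3 with sox9b, and -0.19 and -0.43 for sox10 with snai1b and sox9b.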

How the data were processed

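Counts of UMIs per gene and cell were used as the authors deposited them, in a filtered table of 1347 of 1519 cells. The cells kept had 701 genes or more and those left out 699 or fewer. Cell Ranger 2.1.1, FastQC 0.11.7 and GRCz11 are named in the submitters' processing notes. Annotation release and cell calling are not given in the sources used here. Cell names end in the numbers that end the sample titles, which gave the library of each cell. Nothing but the titles backs this reading, and with the numbers swapped all directions between the libraries would be the opposite. A name table gave symbols for 96.0% of gene rows, many of them human-style, and the Ensembl ID is printed where a symbol is shared.

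UMIs were pooled and divided by the pooled total. Cells were thinned without replacement. Clustering used cells scaled to 10000 UMIs, 2000 variable genes, 20 principal components, 15 neighbours and the Leiden algorithm at resolution 1 (leidenalg 0.10.2, scanpy 1.11.5, scipy 1.17.1). A cluster was named from marker lists. Scrublet marked 6 ErbBi and 7 untreated cells as doublets, which stayed in. edgeR 4.0.16 gave TMM factors only, and no model was fitted. Genes named are the 4 genes, genes of the regulator list past 2-fold, the AP-2 genes, crestin, leading and marker genes and the 5 genes most like each of the 4; snai1a and snai2 were picked after their values had been seen. Some genes that these rules name are not reported here. The 4 genes, the lists and the bins were chosen with earlier results of these data known. The ratio code was tested on simulated data for 9319 genes (ErbBi over untreated), where 199 of 200 genes changed 4-fold passed 2-fold, 391 of 9119 unchanged genes did so by counting error, and 96.2% of intervals held the truth. For the melanin comparison over 7655 genes, 199 of 200 and 198 of 7455 did, and 96.2% of intervals held the truth. The simulated counts were independent Poisson draws, as the intervals assume. They test the code and not how far the intervals hold for real UMIs, which cluster in cells.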

Additional observations from a re-analysis of the deposited data

Results flagged for a closer look

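The cells that the authors' filter left out, which enter no comparison above, carried foxd3. The 149 ErbBi cells left out held 102046 UMIs in all, and the 23 untreated cells 32185. In these ErbBi cells foxd3 had 36 UMIs in 23 cells, or 353 CPM (95% interval 247 to 488). In the untreated cells left out it had 1 UMI, or 31.1 CPM (0.787 to 173), a ratio of 11.4 (1.91 to 461). The ErbBi cells that were kept had foxd3 at 133 CPM. Over kept and left-out cells together, the foxd3 ratio of ErbBi over untreated was 1.01 (0.860 to 1.18). The 5 highest of the left-out ErbBi cells held 47.2% of their foxd3 UMIs. sox10 in the left-out cells was at 255 CPM (166 to 373) for ErbBi and 311 CPM (149 to 571) for untreated embryos. The value was singled out because it lies in data outside the main measurement and above its level in the matching untreated cells. No part of the filter, of depth or of the treatment in it was tested.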

How the results depend on the processing

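No paired analysis was possible because there is 1 library per treatment, which also leaves no replicate to omit. Of 172 alternative values, 146 stayed within the limits of the main value, 21 moved and 5 turned round. Leaving out clusters of nearly 1 library, the highest cell, gch2-rich cells or shared barcodes, expected counts over melanin groups, and treatment ratios in the lowest melanin group without mesenchyme-like and neural tube-like clusters, were chosen after seeing the data. The sox10 ratio of ErbBi over untreated (0.724) became 0.562 with TMM, 0.556 with median-of-ratios scaling and 0.987 without the mesenchyme-like cluster. The foxd3 ratio (0.885) became 0.688, 0.680 and 1.08 under the same settings, 1.06 with thinned cells, 1.099 as a mean over cells and 0.726 without clusters of nearly 1 library. Median-of-ratios scaling lowered every log2 ratio by -0.38. At 3000 UMIs per cell, with 152 ErbBi and 834 untreated cells left, the difference in share was -19.9 points (-28.1 to -11.3) for sox10. It was -7.84 (-14.0 to -0.351) for foxd3 and 4.12 (0.272 to 9.77) for sox9b, both with intervals that leave out 0, unlike at 1900 UMIs. These differences in share include the mesenchyme-like cells and were not computed without them. For sox9b the sign changed with depth, from -1.33 (-2.46 to 0.317) at 1000 UMIs to 0.466 (-1.50 to 3.38) at 1900. foxd3 in untreated cells of cluster 3 was 378 CPM at resolution 1.5 and 423 CPM when untreated cells were clustered alone. The sox10 ratio along the melanin share (1.13) was 1.47 with 5 equal groups of cells and 0.889 without mesenchyme-like and neural tube-like clusters. Without these clusters sox10 in cells over 2% against under 0.5% also turned, to 0.854 in ErbBi and 0.980 in untreated cells, and the ErbBi over untreated ratio under 0.5% turned to 1.18 for sox10 and 1.06 for foxd3. The untreated ratios of over 4% to under 0.5% for foxd3, sox9b and snai1b stayed below 1 in every alternative that gave a value. Without clusters of nearly 1 library no untreated cell over 4% was left and no ratio could be had. At 1000 UMIs untreated co-detection over expected was 0.183 for sox10 with sox9b and 0 for sox9b with snai1b. The list's median log2 ratio was 0.28 at a minimum of 50 or 100 UMIs and 0.017 with TMM, where that of all genes was -0.19. The cause of these changes was not tested.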
